A study of Mus musculus with 24 samples.

Results

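The epidermal differentiation complex is a cluster of genes on mouse chromosome 3 that are switched on late in keratinocyte differentiation. The genes described here were the protein-coding rows whose symbols start with Lce or Sprr (Sprr1a left out), together with Flg, Flg2, Hrnr, Ivl, Lor, Crct1, Kprp, Rptn, Crnn, Tchh and Tchhl1. They numbered 45 of the 45777 genes in the table, and all 45 lay between positions 92080271 and 93471980 of chromosome 3 (GRCm38). They comprised 14 Lce1 genes, 6 Lce3 genes, Lce6a, 10 Sprr2 genes, Sprr1b, Sprr3, Sprr4, the 7 S100 fused-type genes Crnn, Flg, Flg2, Hrnr, Rptn, Tchh and Tchhl1, and Crct1, Ivl, Kprp and Lor. The mice were female BALB/c of 6 weeks, and polyA RNA was sequenced from their skin and their dorsal root ganglia (DRG), where the cell bodies of sensory neurons lie. Model mice had received intradermal LL37, a peptide cut from the human cathelicidin that is used to give rosacea-like inflammation, at 320 µM in 40 µL, 2 times per day for 2 days. The 4 groups were model skin, control skin, model DRG and control DRG, with 6 libraries each. DRG were taken on day 4, and what the controls were injected with and the day of skin collection are not given in the sources used here. Gabapentin was given by mouth from day 3, but the labels do not name the animals that received it, so it cannot be told apart from the other differences between groups. Whether each library of a group came from its own animal is not stated, so p-values here cover no more than the spread among the libraries sequenced, which may be technical.

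Keratinocytes that leave the basal layer build a cornified envelope, a shell of crosslinked protein under the cell membrane. Involucrin and the cytoplasmic plaque proteins envoplakin and periplakin form its first scaffold, which transglutaminases crosslink, and loricrin, small proline-rich (SPRR) and late cornified envelope (LCE) proteins are added to it. The S100 fused-type proteins share an amino-terminal calcium-binding domain followed by repeats. Profilaggrin (Flg) is cut to filaggrin, which binds keratin filaments and is later broken down to amino acids that hold water. Trichohyalin (Tchh), in contrast, hardens the inner root sheath of the hair follicle.

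Levels are given as CPM, read counts scaled to library size with TMM factors, which correct for library composition. Total counts per library were 46549562 to 63531350 in model skin, 45238735 to 64547448 in control skin, 47801198 to 68396846 in model DRG and 52273676 to 63544026 in control DRG. The tissue labels fitted their markers: 13 suprabasal keratinocyte markers summed to 5648 to 20423 CPM in model skin and 9202 to 28034 CPM in control skin, against 11.6 to 17.5 CPM in model DRG and 10.8 to 13.8 CPM in control DRG. No suprabasal marker was absent from skin, but Krt2 was at 0.357 to 1.64 CPM in model skin and 0.715 to 2.42 CPM in control skin. Control skin replicate 2 stood apart from the other 5 control skin libraries. Its hair keratin and shaft genes summed to 858 CPM, against at least 24022 CPM in each of the other controls, and model skin spanned 1428 to 18771 CPM. Values without this library are given beside the results that it moved most.

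In model skin 2 of the 43 members tested, Ivl and Lce6a, were lower than in control skin, and none were higher. A gene was called when its Benjamini-Hochberg (BH) adjusted p in edgeR's quasi-likelihood (QL) test, adjusted over all genes tested, was under 0.05. The called share of the members was 4.65%, against 19.9% of all 19526 genes tested in skin, and 5.82% of all genes were called lower. At an unadjusted p under 0.05 the members numbered 6, or 13.95%, against 35.4% of all genes. Log2 fold changes of the members ranged from -3.80 to 0.88 with a median of -0.15, against a median of -0.02 for all genes, with 19 above 0 and 24 below. Without control replicate 2 the members' median was 0.12, with 22 above 0. No member had all 6 model libraries below or all 6 above the 6 control libraries, a separation seen in 8.69% of all genes tested, 1.44% with the model below and 7.25% with the model above. The members not tested, Sprr2k and Sprr3, were under the filter on low counts, at no more than 0.132 CPM each in model skin and 0.219 and 0.195 CPM in control skin.

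**Figure D1:**
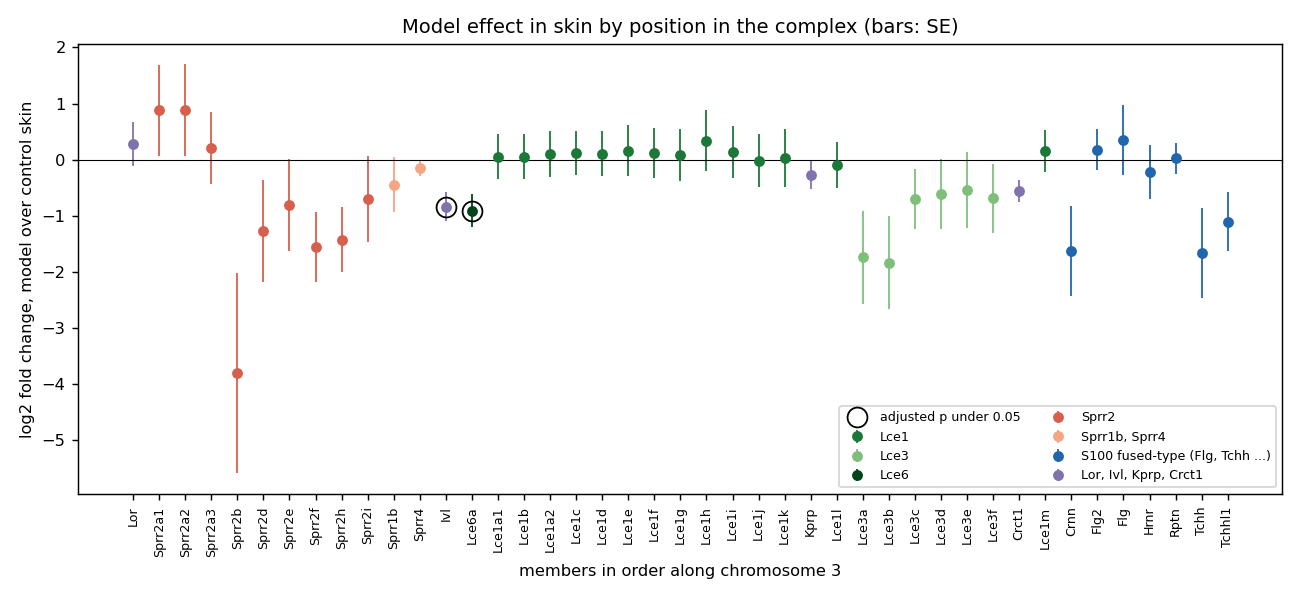
Log2 fold change of each of the 43 tested members, model over control skin (points, coloured by gene class, bars SE), in order along chromosome 3. Ivl and Lce6a, ringed, are the members with an adjusted p under 0.05, the 14 Lce1 genes lie between -0.09 and 0.34, and Sprr2b lies lowest at -3.80 with the widest bar.

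The sequence around the transcription start is shown for the called genes Ivl and Lce6a, for Lor, an envelope gene that was not called, and for Crnn, Tchh and Sprr2h, which were called when control replicate 2 was left out. Each is 250 bases before to 50 bases after the annotated start, 5′ to 3′ on the gene's strand, from RefSeq. In Tchh the 50 bases after that start begin with ATG, the letters of a start codon. The annotated start of Tchh may therefore be that of its coding sequence, and its window may not hold the promoter. Capitals mark a TATA box (TATAAA), an AP-1 motif (TGANTCA) or a GATA motif (AGATAA), each searched on both strands.
Ivl (chr3:92573686-92573985, GRCm38.p6, minus strand): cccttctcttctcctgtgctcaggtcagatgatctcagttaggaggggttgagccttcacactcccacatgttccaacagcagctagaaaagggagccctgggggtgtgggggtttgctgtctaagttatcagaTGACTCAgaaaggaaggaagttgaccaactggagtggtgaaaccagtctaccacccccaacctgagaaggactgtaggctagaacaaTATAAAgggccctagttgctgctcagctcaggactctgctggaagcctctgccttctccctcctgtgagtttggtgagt
Lce6a (chr3:92621611-92621910, GRCm38.p6, minus strand): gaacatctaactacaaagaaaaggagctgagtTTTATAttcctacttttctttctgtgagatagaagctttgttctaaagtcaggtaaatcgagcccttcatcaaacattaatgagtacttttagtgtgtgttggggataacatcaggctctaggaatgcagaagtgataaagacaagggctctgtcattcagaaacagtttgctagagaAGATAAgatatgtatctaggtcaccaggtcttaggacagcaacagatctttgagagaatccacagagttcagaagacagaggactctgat
Lor (chr3:92083093-92083392, GRCm38.p6, minus strand): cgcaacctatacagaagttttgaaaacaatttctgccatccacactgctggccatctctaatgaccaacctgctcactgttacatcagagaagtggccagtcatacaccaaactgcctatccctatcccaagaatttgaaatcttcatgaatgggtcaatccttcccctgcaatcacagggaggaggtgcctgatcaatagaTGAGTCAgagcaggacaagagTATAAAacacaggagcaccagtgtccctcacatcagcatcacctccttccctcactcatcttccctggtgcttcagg
Crnn (chr3:93144539-93144838, GRCm38.p6, plus strand): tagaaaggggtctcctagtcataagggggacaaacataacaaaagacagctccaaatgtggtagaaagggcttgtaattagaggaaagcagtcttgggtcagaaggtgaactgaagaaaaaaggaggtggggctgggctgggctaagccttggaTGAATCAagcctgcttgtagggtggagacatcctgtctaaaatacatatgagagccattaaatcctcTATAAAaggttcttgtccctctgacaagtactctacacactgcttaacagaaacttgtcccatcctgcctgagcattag
Tchh (chr3:93442080-93442379, GRCm38.p6, plus strand): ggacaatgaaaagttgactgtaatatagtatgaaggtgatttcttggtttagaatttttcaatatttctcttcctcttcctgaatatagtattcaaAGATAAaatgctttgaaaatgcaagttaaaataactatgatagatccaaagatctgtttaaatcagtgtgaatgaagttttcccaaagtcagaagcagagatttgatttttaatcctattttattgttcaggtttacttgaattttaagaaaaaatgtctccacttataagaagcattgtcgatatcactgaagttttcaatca
Sprr2h (chr3:92385435-92385734, GRCm38.p6, plus strand): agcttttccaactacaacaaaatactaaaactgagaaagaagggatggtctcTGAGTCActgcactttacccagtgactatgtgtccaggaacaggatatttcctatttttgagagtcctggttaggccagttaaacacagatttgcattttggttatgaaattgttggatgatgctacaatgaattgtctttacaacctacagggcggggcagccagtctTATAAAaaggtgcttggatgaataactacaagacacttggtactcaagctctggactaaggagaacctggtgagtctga

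RefSeq promoters were matched for 42 of the 45 members. The TATA box was in 19 of them (45.2%), against 13.6% of all 32851 promoters, and the AP-1 motif in 15 (35.7%), against 7.81%. AP-1 matches were in Ivl, Lor, Crnn, Flg, Flg2, Rptn, Tchhl1, Sprr1b and 7 Sprr2 promoters, and in no Lce promoter. The same 7 Sprr2 promoters also held a TATA box. Promoters of 1 gene family are not independent, so these shares count related sequences separately, and they were not tested. A grainyhead-like motif (AACCNGTT) was in 1 member promoter (2.38%), that of Rptn, against 2.09% of all, and an OVOL motif (CCGTTA) was in 0 of 42, against 2.76%. The GATA motif was in 5 (11.9%), against 11.2%. No searched motif was written so as to overlap another. A match, or the lack of one, describes letters in the window only, at any position and on either strand. The called genes shared only the letters TATAAA, and not in the same place or on the same strand. Ivl had them on its own strand shortly before the start, and an AP-1 motif. Lce6a had them on the other strand near the upstream end of its window, and a GATA motif.

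Ivl encodes involucrin, an early scaffold protein of the envelope (gene 16447, chromosome 3, 92570899 to 92573790). The 6 libraries of model skin had 72.4, 127.4, 124.4, 84.8, 191.7 and 94.6 CPM, and those of control skin 165.7, 138.5, 285.2, 141.7, 230.2 and 278.4 CPM. Model replicate 5 was the one model library within the control range, and the other 5 lay below every control. The log2 fold change was -0.83 ± 0.26 (SE, n = 6 each; edgeR QL, adjusted p = 0.0427), or 1.78-fold lower. In bulk skin, fewer cells of a type and less RNA per cell cannot be told apart, for Ivl or for any member below. The call rested on single libraries: when 1 of the 12 skin libraries was dropped at a time it passed in 3 fits, with adjusted p from 0.0125 to 0.103.

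Lce6a encodes a late cornified envelope protein that stands apart from the Lce1 and Lce3 groups (gene 78382, chromosome 3, 92604821 to 92621660). Model skin had 41.1, 64.9, 76.9, 19.8, 84.6 and 41.9 CPM, and control skin 100.5, 68.7, 113.9, 104.5, 118.7 and 112.8 CPM. Control replicate 2 was the lowest control, 4 of 6 model libraries lay below it, and the other 5 controls lay above every model library. The log2 fold change was -0.91 ± 0.29 (SE, n = 6 each; edgeR QL, adjusted p = 0.0456), or 1.88-fold lower. When 1 library was dropped at a time the call passed in 4 of 12 fits, with adjusted p from 0.0251 to 0.0999. The RefSeq span of Lce6a overlapped the long noncoding RNA Gm35639 and, in the GENCODE M21 annotation, a separate gene named 2210017I01Rik, and the strand setting of the counting is not given. Gm35639 in skin had a log2 fold change of -0.21 (edgeR QL, adjusted p = 0.659).

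Loricrin, the main protein of the mature envelope, did not follow involucrin. Lor was at 186.5, 544.3 and 1021 CPM (lowest, median and highest) in model skin and at 260.2, 414.1 and 985.8 CPM in control skin. The groups overlapped nearly throughout, with model replicate 2 lowest and control replicate 2 highest among controls. Its log2 fold change was 0.28 ± 0.39 (edgeR QL, adjusted p = 0.648), and 0.62 without control replicate 2 (edgeR QL, adjusted p = 0.196). Crct1, which encodes a cysteine-rich protein of the complex, was at 132.7, 150.3 and 264.6 CPM in model skin and at 174.7, 257.3 and 317.6 CPM in control skin. In 4 of 6 model libraries it lay below all controls, at a log2 fold change of -0.55 ± 0.20 that did not pass (edgeR QL, adjusted p = 0.0646). Kprp, a keratinocyte proline-rich protein, was at 99.9, 148.4 and 301.2 CPM in model skin and at 174.5, 189.2 and 283.9 CPM in control skin. Its model libraries spanned the controls on both sides, 4 below all of them and 1 above, with a log2 fold change of -0.27 ± 0.26 (edgeR QL, adjusted p = 0.480).

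**Figure D2:**
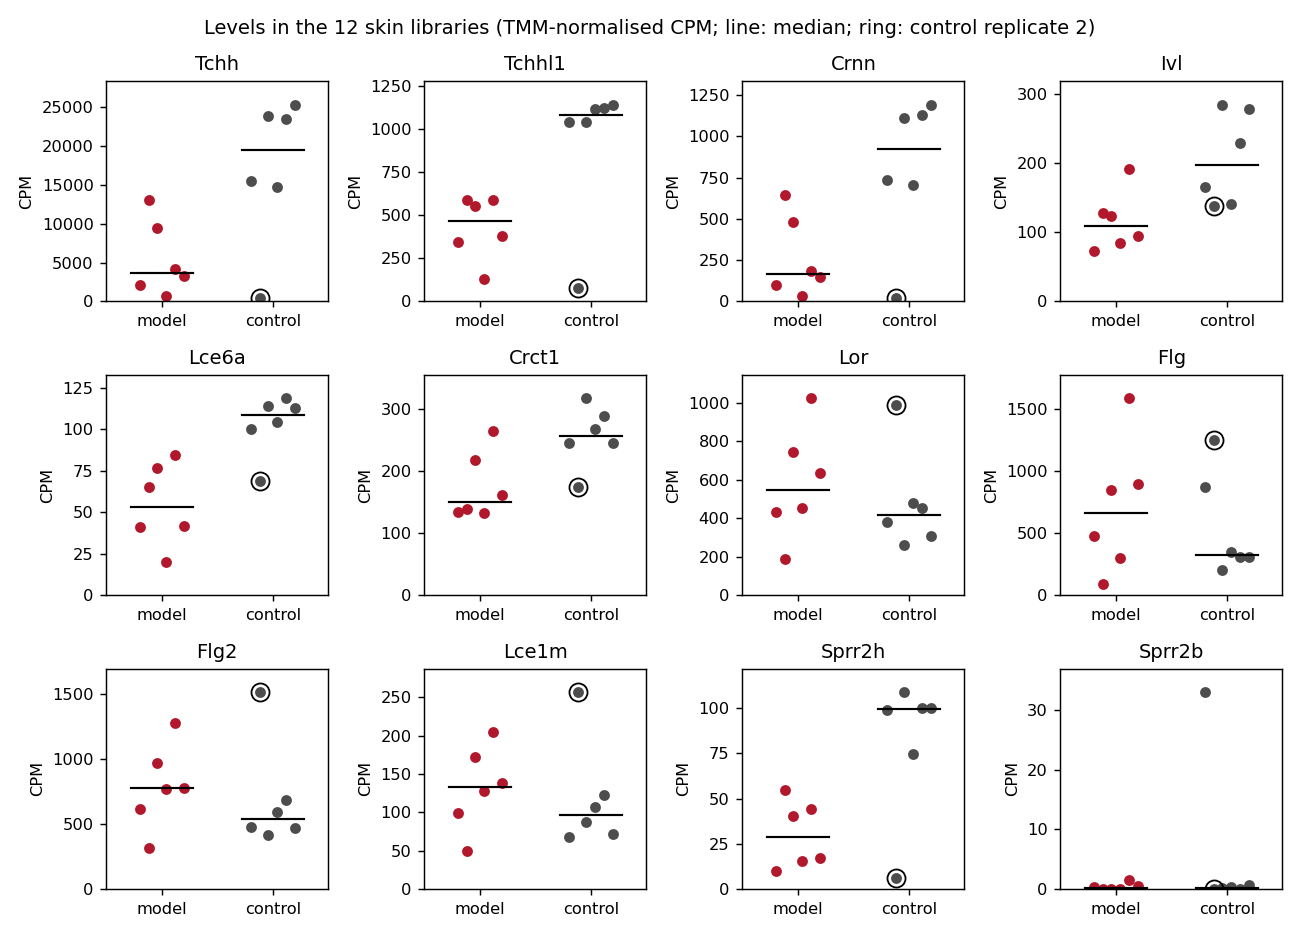
TMM-normalised CPM of 12 members in each of the 6 model and 6 control skin libraries (points), with the group median (line) and control replicate 2 ringed. Tchh, Tchhl1, Crnn and Sprr2h are near the bottom of the axis in the ringed library, at 430.2, 78.6, 22.7 and 6.04 CPM, and Lor, Flg2 and Lce1m are highest there among the controls.

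The 14 Lce1 genes, which encode late cornified envelope proteins of the upper epidermis, were close to 0 in log2 fold change and varied together across libraries. The log2 fold changes were -0.09 to 0.34 with a median of 0.11, and 12 of 14 were above 0, with adjusted p from 0.692 to 0.983 (edgeR QL, BH-adjusted over all genes). None was called, 0 had an unadjusted p under 0.05, and DESeq2 called 0. Their levels summed to 213.7, 705.7 and 1212 CPM (lowest, median and highest) in model skin and to 420.1, 511.5 and 1493 CPM in control skin. Model replicate 2 was the lowest model library and model replicate 5 the highest for all 14 genes, and control replicate 2 was the highest control for all 14. Without control replicate 2 the other 5 control sums were 420.1 to 596.8 CPM, all 14 log2 fold changes were above 0 with a median of 0.51, and still none passed (edgeR QL, lowest adjusted p = 0.201). By the authors' TPM, a level per transcript length, Lce1a1 was the highest of the group, at 430 ± 210 TPM in model skin and 406 ± 266 TPM in control skin (SD, n = 6 each), followed by Lce1m at 320 ± 138 TPM in model skin and 282 ± 171 TPM in control skin. These 2 did not differ beyond that spread. Between 0 and 27.1% of the 50-base windows of an Lce1 gene were found in another gene, so counts within this group may be shared.

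The 6 Lce3 genes, whose human relatives are induced by skin injury and in psoriasis, were all below 0 in log2 fold change, from -1.83 to -0.54, and none was called. One of them, Lce3b, had an unadjusted p under 0.05, and DESeq2 called 0. They were scarce: Lce3b was at 0, 0.161 and 0.544 CPM in model skin and at 0.0850, 0.454 and 2.12 CPM in control skin. Lce3a was at 0, 0.194 and 0.841 CPM in model skin and at 0.190, 0.580 and 3.04 CPM in control skin. For Lce3a 3 model libraries and for Lce3b 2 lay below all controls, and the rest overlapped. Their log2 fold changes were -1.83 ± 0.82 and -1.74 ± 0.83 for Lce3b and Lce3a (edgeR QL, adjusted p = 0.132 for Lce3b and 0.156 for Lce3a). Lce3c, the most abundant, was at 1.03, 2.62 and 9.37 CPM in model skin and at 2.21, 5.18 and 9.47 CPM in control skin. Its log2 fold change was -0.70 ± 0.54 (edgeR QL, adjusted p = 0.379). Model replicate 2 was lowest and model replicate 5 highest for all 6 genes, as for Lce1. In Lce3 genes 12.1 to 49.3% of the 50-base windows were found in another gene, the highest share in Lce3d.

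The Sprr2 genes, which encode small crosslinking bridges of the envelope, differed among themselves. Of the 9 tested, 6 were below 0 and 3 above, and none was called. By edgeR, 2 had an unadjusted p under 0.05, Sprr2f and Sprr2h, and DESeq2 called both. Sprr2h was at 9.87, 54.8, 40.5, 15.5, 44.3 and 17.1 CPM in model skin and at 98.9, 6.04, 108.9, 74.8, 100.1 and 100.2 CPM in control skin. Control replicate 2 was below every model library and the other 5 controls were above every model library, and the log2 fold change was -1.42 ± 0.58 (edgeR QL, adjusted p = 0.102). Sprr2f was at 1.14, 1.57 and 5.03 CPM in model skin and at 0.574, 6.41 and 13.3 CPM in control skin, a log2 fold change of -1.55 ± 0.62 (edgeR QL, adjusted p = 0.0951). Here too control replicate 2 was the lowest library of all.

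For Sprr2b and Sprr2d the value depended on control replicate 1. Sprr2b was at 0, 0.207 and 1.45 CPM in model skin and at 0, 0.168 and 33.0 CPM in control skin, with the highest value in control replicate 1 and the other 5 controls at or below 0.618 CPM. Its log2 fold change was -3.80 ± 1.78 (edgeR QL, adjusted p = 0.149) and became 1.01 without control replicate 1. Sprr2d was at 1.92, 5.15 and 23.2 CPM in model skin and at 2.17, 7.05 and 77.6 CPM in control skin. Its log2 fold change was -1.27 ± 0.91 (edgeR QL, adjusted p = 0.345) and became 0.15 without control replicate 1. That library was the highest control for 8 of the 9 Sprr2 genes tested. Sprr2a1 and Sprr2a2 had log2 fold changes of 0.88 each and Sprr2a3 of 0.21, with none called. Sprr2a1 was at 1.61, 22.8 and 50.6 CPM in model skin and at 2.35, 6.31 and 53.5 CPM in control skin. Its highest control was again replicate 1, and the next control was at 15.7 CPM. With a library left out its log2 fold change ran from 0.63 to 1.93, and that of Sprr2a3 from -0.0045 to 1.003. Neither was called in any of these fits (edgeR QL, lowest adjusted p = 0.0875 for Sprr2a1). The counts of Sprr2a1 and Sprr2a2 differed by -3 to 13 in every library, 96.3% and 96.5% of their 50-base windows were found in another gene, and their 300-base promoters were identical, so they are not separate measurements. Sprr4 was the most even member of the family, at 171, 216.3 and 281.7 CPM in model skin and at 182.2, 239.7 and 300.02 CPM in control skin, with a log2 fold change of -0.15 ± 0.15 (edgeR QL, adjusted p = 0.507). Sprr1b had a log2 fold change of -0.44 ± 0.50 (edgeR QL, adjusted p = 0.561).

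For Tchh, Tchhl1 and Crnn the call depended on control replicate 2. Tchh, which encodes trichohyalin, was at 2146, 13051, 9484, 674.6, 4155 and 3229.6 CPM in model skin and at 15495, 430.2, 23827, 14692, 23469 and 25353 CPM in control skin. The 6 model libraries lay between control replicate 2 and the other 5 controls, so the groups overlapped through 1 library. The log2 fold change was -1.66 ± 0.80 (edgeR QL, adjusted p = 0.160). Tchhl1, trichohyalin-like 1, was at 127.5, 466.4 and 588.7 CPM in model skin and at 78.6, 1079 and 1141 CPM in control skin, with a log2 fold change of -1.10 ± 0.52 (edgeR QL, adjusted p = 0.151). Crnn, which encodes cornulin, was at 31.6, 166.3 and 642.4 CPM in model skin and at 22.7, 923.1 and 1192 CPM in control skin, with a log2 fold change of -1.63 ± 0.80 (edgeR QL, adjusted p = 0.167). For Tchhl1 and Crnn the order was the same: control replicate 2 lowest, then all model libraries, then the other 5 controls. The same model library was highest for all 3 genes, replicate 2, which was the lowest model library for 34 of the 43 members tested. Tchh alone held 0.0707 to 1.36% of all counts in model skin and 0.0432 to 2.53% in control skin, and the members together held 0.424 to 1.66% in model skin and 0.825 to 3.08% in control skin.

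The hair keratin and shaft genes, which mark the follicle, were likewise lowest in control replicate 2. None of the 16 tested was called in edgeR, 5 had an unadjusted p under 0.05 and DESeq2 called 5, with a median log2 fold change of -1.58. Without control replicate 2, which was singled out by these same genes, edgeR called 12 of them lower, and without model replicate 2, 2. In the fit without control replicate 2, 12.8% of all genes were called lower. Their summed level was 1428 to 18771 CPM in model skin and 858 to 37912 CPM in control skin. Hoxc13, a transcription factor of the hair shaft, was at -1.10 and Msx2, a homeobox factor of the hair matrix, at -1.53 in log2 fold change (edgeR QL, adjusted p = 0.0812 and 0.0860). The part of the hair genes in the result for Tchh, Tchhl1 and Crnn was not tested.

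Without control replicate 2 the count of called members was 8, all lower in model skin, against 31.5% of all 19911 genes called and 12.8% called lower in that fit. To Ivl and Lce6a were added Crct1, Sprr2f, Sprr2h, Tchh, Tchhl1 and Crnn. Tchh then had a log2 fold change of -1.92 (edgeR QL, adjusted p = 0.0315), Tchhl1 -1.34 (0.00853), Crnn -1.88 (0.0364) and Sprr2h -1.67 (0.00968). Crct1 had -0.65 and Sprr2f -1.80 (edgeR QL, adjusted p = 0.0228 and 0.0175). Ivl and Lce6a had -0.93 and -1.005 (edgeR QL, adjusted p = 0.0213 and 0.0251). Control replicate 2 was the lowest control for each of these 8 members, and it was singled out from these same data. The adjusted p-values of that fit are therefore not independent support for a lower level. With all 12 libraries in DESeq2 the count was 5, namely Ivl, Lce6a, Crct1, Sprr2f and Sprr2h, all lower in model skin. That tool called 28.4% of all genes, and 12.3% lower. Of the 12 fits that left out 1 skin library, 7 called no member. These were the fits without model replicate 1, 2 or 6 and without control replicate 1, 3, 5 or 6. Lce6a alone was called without model replicate 3 or 4, Ivl alone without control replicate 4, and Ivl, Lce6a, Crct1 and Sprr2f without model replicate 5.

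**Figure D3:**
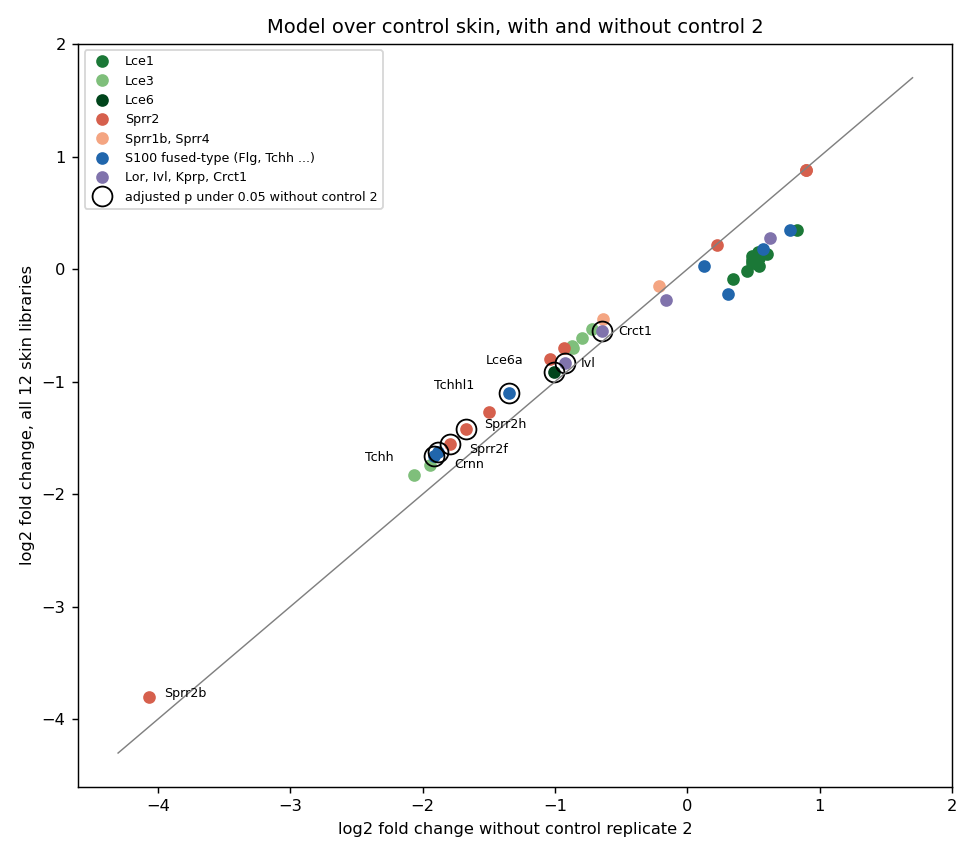
Log2 fold change of the 43 tested members, model over control skin, with all 12 libraries (vertical axis) against the value without control replicate 2 (horizontal axis), with a line of equality. The 8 ringed members have an adjusted p under 0.05 without that library, and the 14 Lce1 genes lie right of the line, from 0.34 to 0.83 without it.

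The filaggrin family showed no called member and wide overlap. Flg, profilaggrin, was at 86.9, 660.8 and 1582 CPM in model skin and at 201.3, 325.5 and 1248 CPM in control skin, a log2 fold change of 0.35 ± 0.62 (edgeR QL, adjusted p = 0.721). Flg2, filaggrin-2, was at 312, 771.8 and 1275 CPM in model skin and at 412.2, 536 and 1511 CPM in control skin, a log2 fold change of 0.18 ± 0.37 (edgeR QL, adjusted p = 0.759). Hrnr, hornerin, was at 131.7, 456.5 and 885.1 CPM in model skin and at 209.2, 393.8 and 1401 CPM in control skin, a log2 fold change of -0.22 ± 0.48 (edgeR QL, adjusted p = 0.780). In all 3 genes model replicate 2 was below every control library, and control replicate 2 was the highest control. Without that library the log2 fold changes were 0.78 for Flg, 0.57 for Flg2 and 0.31 for Hrnr, whose sign turned, and none passed (edgeR QL, adjusted p = 0.358, 0.155 and 0.587). Rptn, repetin, had the smallest difference of the group, at 39.1, 87.5 and 140.4 CPM in model skin and at 54.5, 79.9 and 125.7 CPM in control skin, a log2 fold change of 0.02 ± 0.28 (edgeR QL, adjusted p = 0.960) that was 0.12 without control replicate 2. By edgeR 0 of these 4 genes had an unadjusted p under 0.05, and DESeq2 called 0.

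**Figure D4:**
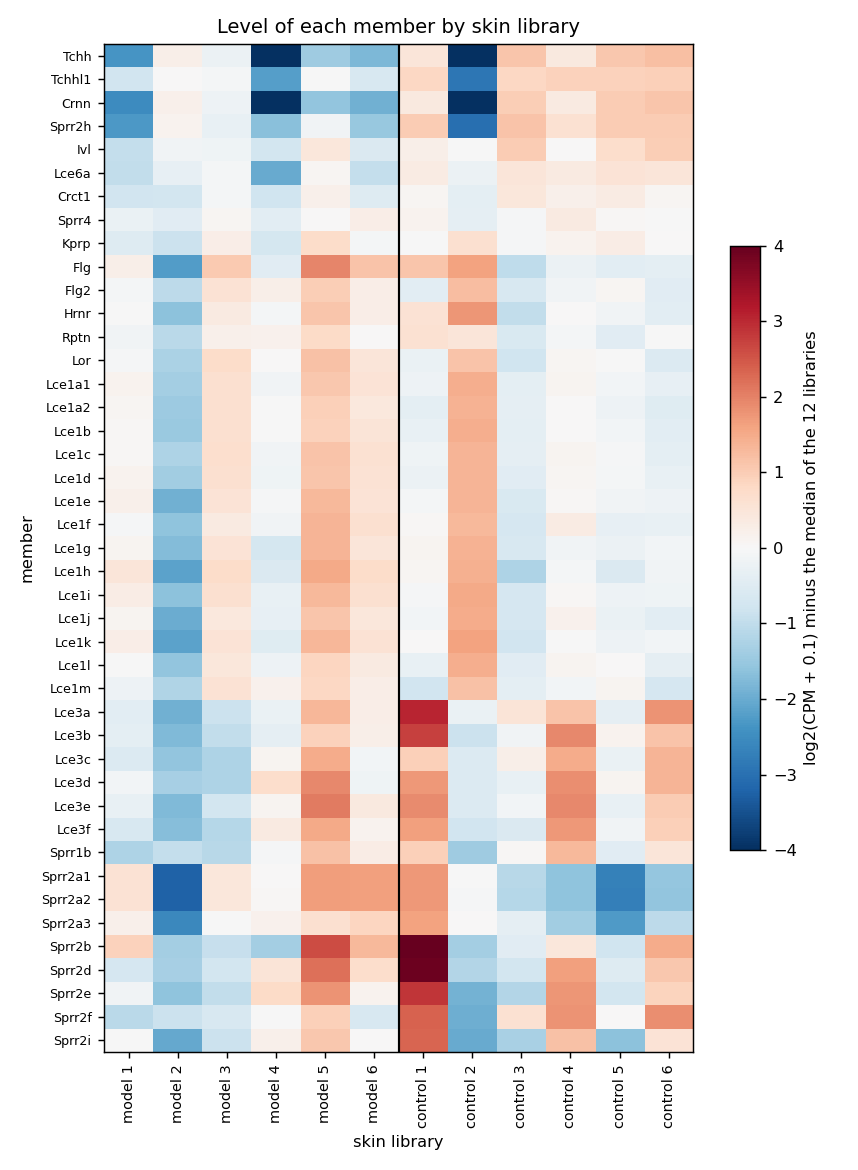
Level of each tested member in the 6 model and 6 control skin libraries, as log2(CPM + 0.1) minus the median of the 12 libraries (colour scale). Control replicate 2 is low for Tchh, Tchhl1, Crnn and Sprr2h and high for the 14 Lce1 genes, and model replicate 2 is lowest for 34 of 43 members among the model libraries.

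Levels per transcript length ordered the members differently from CPM. By the authors' TPM, Tchh was the highest in control skin, at 1993 ± 1774 TPM in model skin and 6121 ± 3356 TPM in control skin (SD, n = 6 each). Sprr4 was at 2001 ± 445 TPM in model skin and 2167 ± 334 TPM in control skin, and in model skin it did not differ from Tchh beyond the spread. The annotated span of Sprr4 is short (92500263 to 92500493), and its rank by TPM depends on that length. By median CPM Sprr4 was below Lor, at 216.3 against 544.3 in model skin and 239.7 against 414.1 in control skin. Below Tchh and Sprr4 by TPM, Lor was at 691 ± 359 TPM in model skin and 558 ± 313 TPM in control skin. Crct1 was at 518 ± 171 TPM in model skin and 742 ± 131 TPM in control skin. Tchhl1 was at 440.8 ± 194 TPM in model skin and 925 ± 418 TPM in control skin, and Crnn at 285 ± 264 TPM in model skin and 857 ± 467 TPM in control skin. These 4 overlapped each other within 1 SD in both groups. Ivl was at 128 ± 50.8 TPM in model skin and 222 ± 71.5 TPM in control skin, and Lce6a at 115 ± 51.0 TPM in model skin and 204 ± 23.2 TPM in control skin. Among the members tested Lce3b and Lce3a were lowest, at 0.756 ± 0.748 and 1.08 ± 1.18 TPM in model skin and 2.75 ± 2.91 and 3.64 ± 4.13 TPM in control skin.

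Genes that work with the members gave a mixed picture in skin, where 5.82% of all genes tested were called lower and 14.1% higher. Without control replicate 2, 12.8% of all genes were called lower. Of 15 genes of envelope crosslinking and processing, 0 were higher and 2 lower, at a median log2 fold change of -0.42. The called genes were Evpl, envoplakin (-0.91; edgeR QL, adjusted p = 0.0261), and Ppl, periplakin (-0.63; edgeR QL, adjusted p = 0.0230), which form the early scaffold with involucrin. The count was 6 lower without control replicate 2, 4 without model replicate 5, 0 without model replicate 4 or control replicate 5, 1 without model replicate 6 or control replicate 3 or 6, and 2 or 3 without the other libraries. The transglutaminases Tgm1 and Tgm3, named after the values were seen, had log2 fold changes of -0.62 and -1.52 and did not pass (edgeR QL, adjusted p = 0.0547 and 0.0545). Of 12 barrier lipid genes 0 were higher and 2 lower, Pnpla1 (-0.89), which makes acylceramides, and Smpd1 (-0.43), acid sphingomyelinase (edgeR QL, adjusted p = 0.0231 and 0.0153), at a median of -0.20. The lower count was 4 without model replicate 5, 1 without model replicate 4 or 6 or control replicate 3, 5 or 6, and 2 or 3 otherwise.

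Regulators of epidermal differentiation had more calls. Of 16, 7 were lower and 1 higher, against 5.82% of all genes tested called lower and 14.1% higher. The median log2 fold change was -0.48. Without control replicate 2, 9 were lower, against 12.8% of all genes in that fit. The count called lower was 4 without model replicate 4 or 6 or control replicate 1, 3, 4 or 5, and 5 to 8 without the rest. Grhl1, a grainyhead-like factor, was at 165.8 to 271.9 CPM in model skin and 286.7 to 387.5 CPM in control skin, with no overlap (-0.62; edgeR QL, adjusted p = 0.0108). Gata3, a GATA factor of epidermis and hair follicle, was at 50.4 to 104.1 CPM in model skin and 119.3 to 158 CPM in control skin. It too had no overlap (log2 fold change -0.76, edgeR QL, adjusted p = 0.0116). Such a separation with the model below was seen in 1.44% of all genes tested. Tfap2a, Zfp750 and Hopx, all regulators of keratinocyte genes, were lower at -0.73, -0.61 and -0.57 (edgeR QL, adjusted p from 0.0155 to 0.0314), as were 2 others. Nfe2l2, the oxidative stress factor NRF2, was higher at 0.30 (edgeR QL, adjusted p = 0.0164).

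Few keratinocyte markers of the layers around the members were called, against 5.82% of all genes tested called lower and 14.1% higher. Of 13 suprabasal markers 0 were higher and 1 lower, at a median log2 fold change of -0.11, which was 0.12 without control replicate 2. Without model replicate 5, 3 were lower. The called gene was Dsc1, the cadherin desmocollin-1, at 193.4 to 499 CPM in model skin and 515.3 to 703 CPM in control skin (-0.87; edgeR QL, adjusted p = 0.0141). Krt10, the suprabasal keratin, named after the values were seen, had a log2 fold change of -0.11 (edgeR QL, adjusted p = 0.880). None of 8 basal markers was called (0 by unadjusted p under 0.05, DESeq2 0), at a median of -0.18. The basal markers with the smallest p were Trp63, the p63 factor, at -0.31 and the keratin Krt5 at -0.26. None of 4 stress and wound keratins was called (1 by unadjusted p under 0.05, DESeq2 1), also at a median of -0.18, with Krt17 at -0.62 and Krt16 at 0.52. Without model replicate 5, 1 basal marker was called lower, and without control replicate 2, 1 stress keratin. Of the 15 other genes of the complex tested, S100a10 was higher (0.56) and S100a14 and S100a16 lower (-0.77 and -0.79; edgeR QL, adjusted p = 0.0110, 0.00574 and 0.00975), at a median of -0.30. Without control replicate 2 this list had 2 higher and 6 lower.

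Markers of other cell types also moved between the skin groups, where 14.1% of all genes tested were called higher. All 5 leukocyte markers (Ptprc, Cd68, Lyz2, Csf1r and Itgam) rose (median log2 fold change 2.51), with summed levels of 507.4 to 1537 CPM in model skin and 135.7 to 335.3 CPM in control skin. All 5 adipocyte markers (Adipoq, Plin1, Cfd, Lep and Fabp4) rose (median log2 fold change 1.73), with summed levels of 1203 to 9665 CPM in model skin and 1041 to 1276 CPM in control skin. None of 5 skeletal muscle markers was called by edgeR or DESeq2 (0 by unadjusted p under 0.05). They summed to 776.7 to 9293 CPM in model skin and 1689.9 to 7307 CPM in control skin, with Myh4 at a log2 fold change of 0.84 and Tnnt3 at -0.41. Of the sensory neuron list 2 genes were tested in skin, Tubb3 (-1.66) and Prph (0.58), and 5 of the glia list, led by Mbp (0.39), and edgeR called none. At an unadjusted p under 0.05 they numbered 1 and 2, and DESeq2 called 1 of each list. Without control replicate 2 edgeR called 1 sensory neuron gene lower and 3 glia genes higher, and without model replicate 4 or 6 it called 1 glia gene higher. No defining marker of the leukocyte, adipocyte or muscle lists was at 0 in skin. The part of these cell types in the members' values was not tested.

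In DRG, which hold no epidermis, most members were at or near 0. No count was found for 25 of 45 members in any of the 12 libraries, which allows up to 0.00872 CPM in model DRG and 0.00864 CPM in control DRG (3 counts over a group, counting error only). A further 18 had counts but were under the filter. Lor had 3 to 30 counts per library in model DRG and 0 to 30 in control DRG, and the others had at most 6 counts in a library, with 53 counts over all model libraries and 13 over all control libraries. Of those 18 members, 12 had counts in model libraries alone, 4 in control libraries alone and 2 in both groups. Lce1f and Lce1g held 15 and 14 of the model counts. Sprr2a1 and Sprr2a2, which are not separate measurements, had 1 count each, both in model replicate 1. How often all genes under the filter split in this way was not computed, so the split is not read as a difference between groups.

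The 2 members tested in DRG were Lce6a and Tchh, and neither was called, against 0.0974% of all 19509 genes tested. In neither did the groups separate without overlap, which 0.528% of all genes tested did. At an unadjusted p under 0.05 there was 1, Lce6a, and DESeq2 called 0. Lce6a had 1.14, 0.973, 0.726, 0.889, 0.923 and 0.422 CPM in model DRG and 0.607, 0.418, 0.534, 0.426, 0.395 and 0.392 CPM in control DRG. In 5 of 6 model libraries it was above every control, and model replicate 6 lay within the control range. The log2 fold change was 0.88 ± 0.22 (SE, n = 6 each; edgeR QL, unadjusted p = 0.00159, adjusted p = 0.288). Without model replicate 6 the adjusted p was 0.0487, and over all settings it ran from 0.0487 to 0.884. These levels rest on 20 to 78 counts in a model library and 22 to 33 in a control library. The overlapping Gm35639 was at 0.0982 to 0.220 CPM in model DRG and 0.1002 to 0.368 CPM in control DRG, a log2 fold change of -0.46 (edgeR QL, adjusted p = 0.663). Tchh was at 0.780, 1.43 and 1.81 CPM in model DRG and at 0.802, 1.41 and 1.56 CPM in control DRG, with a log2 fold change of 0.17 ± 0.24 (edgeR QL, adjusted p = 0.860).

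**Figure D5:**
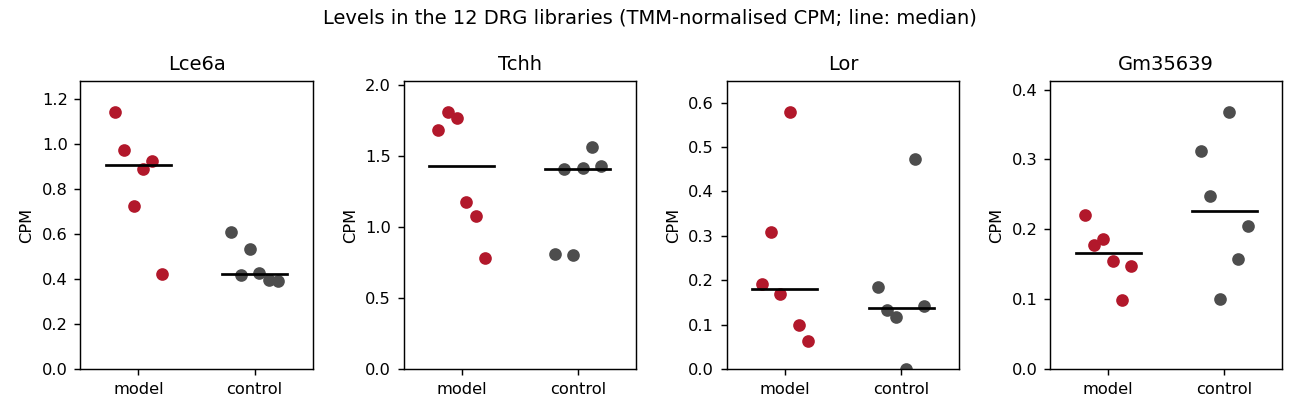
TMM-normalised CPM in each of the 6 model and 6 control DRG libraries (points) with the group median (line), for the tested members Lce6a and Tchh, for Lor, and for Gm35639, which overlaps Lce6a. For Lce6a 5 of 6 model libraries lie above all controls, and for Tchh, Lor and Gm35639 the groups overlap.

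Of the 13 gene lists, Krtdap and Sprr1a were the members called in DRG. Krtdap was 1 of 8 suprabasal markers tested there, and Sprr1a 1 of 14 other genes of the complex tested. Of all 19509 genes tested in DRG 0.0974% were called, all of them higher. Krt5 had at most 0.0589 CPM in model DRG and 0.0471 CPM in control DRG, and Krt10 was at 1.41 to 2.42 CPM in model DRG and 1.63 to 2.53 CPM in control DRG (log2 fold change -0.06; edgeR QL, adjusted p = 0.925). Krtdap, a keratinocyte differentiation-associated protein, was at 0.337 to 2.41 CPM in model DRG and 0 to 0.166 CPM in control DRG (log2 fold change 3.36; edgeR QL, adjusted p = 0.0292), and its call passed in 4 of 12 fits with a library dropped. Sprr1a, the excluded neighbour, which is known as a regeneration-associated gene of injured sensory neurons, was at 5.10 to 23.8 CPM in model DRG and 0.0775 to 0.497 CPM in control DRG (log2 fold change 6.25; edgeR QL, adjusted p = 0.000320).

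The difference between the model effect in skin and in DRG was tested for Lce6a and Tchh, the members that passed the filter in both tissues. For Lce6a the skin effect minus the DRG effect was -1.84 ± 0.41 on the log2 scale (SE; edgeR QL, adjusted p = 0.00417), against 17.1% of all 17251 genes called, 6.43% lower and 10.6% higher. Lce6a was lower in model than in control skin, and its DRG values leaned the other way without passing by themselves. The call held in all 31 settings that tested Lce6a, with adjusted p from 9.4e-05 to 0.00984. All of these settings used 1 estimate of spread per gene across skin and DRG. Pooling the tissues can move calls: genes called in skin numbered 3892 with skin alone and 6820 with all 24 libraries in 1 fit. The Lce6a difference was not tested with a separate spread for each tissue. For Tchh the difference was -1.88 ± 0.91 (edgeR QL, adjusted p = 0.151), and without skin control replicate 2 it passed (adjusted p = 0.0274).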

How the data were processed

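PolyA RNA of 24 libraries was sequenced, 6 in each of the groups model skin, control skin, model DRG and control DRG, which were taken from the sample titles. Per the submitters' processing notes, bcl2fastq 2.20.0, Trimmomatic, HISAT2 2.1.0 and StringTie 2.1.3b were used with GRCm38/mm10; the counting step, its strand setting and its filters are not given in the sources used here. As deposited by the authors, the counts are raw reads per gene, in whole numbers and without normalization. The authors also deposited TPM values, scaled to transcript length and library size, which were used for levels between genes and in alternatives, and FPKM values, likewise scaled by the authors, which were not used.

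Each tissue was fitted alone on the counts in edgeR 4.0.16 (R 4.3.3), with filterByExpr, TMM factors, robust dispersion and the QL F test, two-sided, with BH adjustment over all genes tested and a threshold of 0.05. The skin minus DRG difference was a contrast in 1 fit of all 24 libraries, limited to genes kept in skin and in DRG. It used 1 estimate of spread per gene for both tissues and treated the 24 libraries as separate. The fits were also run on simulated counts, and the outcome is not given here. Those counts held no outlying library such as control skin replicate 2, so they cannot speak to the results which that library moved. Depth was at least 45238735 counts per library, and the floor of 3 counts covers counting error only. All 60 within-group library pairs differed by more than sampling noise (lowest chi-square per gene 9.13). The members, and the 13 gene lists beside them, were chosen with earlier results of these data known. Values per library are given for called members, for the members outside the Lce and Sprr families, and for the 4 Lce and 4 Sprr genes with the smallest p. From each list up to 6 called genes with the smallest p are named, or 2 where none was called; 1 gene so chosen is not reported here. Coordinates and promoters are from RefSeq (GRCm38.p6), and shared 50-base windows from GENCODE M21 transcripts.

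The alternatives tried were another tool (DESeq2 1.42.0, or limma 3.58.1 on the log2 of TPM with 1 or 0.1 added), other scaling factors (upper-quartile, RLE, or TMM within each tissue for the difference), other filters (none, or a minimum of 1 CPM in 6 libraries), a non-robust dispersion, 1 fit over all 24 libraries, a replicate block, a required log2 fold change of 1 or more in size, and the omission of each library. List counts under DESeq2 and under the omission of each library were added after the data were seen.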

Additional observations from a re-analysis of the deposited data

Results flagged for a closer look

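In 13 of 44 groups of 6 libraries looked at, the highest or lowest library stood far from the others by Dixon's criterion. This is a gap to the nearest library that is a large part of the group's range. For normally distributed values chance gives such a gap in about 1 group in 20. CPM was used untransformed, so that rate may not hold here. The groups share libraries, so the 13 are not separate events. Model skin replicate 5 was high for Lce3c (9.37 CPM), Sprr2f (5.03 CPM), Sprr2b (1.45 CPM) and Sprr2d (23.2 CPM). Control skin replicate 2 was low for Lce6a (68.7 CPM), Tchhl1 (78.6 CPM) and Sprr2h (6.04 CPM) and high for Lor (985.8 CPM), Flg2 (1511 CPM) and Hrnr (1401 CPM). Control skin replicate 1 was high for Lce3a (3.04 CPM), Sprr2b (33.0 CPM) and Sprr2d (77.6 CPM).

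The model effect on Lce6a differed between tissues, with a skin minus DRG difference of -1.84 on the log2 scale (edgeR QL contrast, adjusted p = 0.00417). That fit used 1 estimate of spread per gene for both tissues. The log2 fold change was -0.91 in skin, with 4 of 6 model libraries below all controls, and 0.88 in DRG, with 5 of 6 above all controls and no call.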

How the results depend on the processing

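The count of members called in skin was 2. It was 5 in DESeq2, 4 with all 24 libraries in 1 fit (Ivl, Crct1, Lce6a and Tchh), 1 in limma on log2(TPM + 1) and 1 on log2(TPM + 0.1), both Lce6a, and 0 without the filter and 0 when a log2 fold change of 1 or more in size was also required. With a library left out it ran from 0 to 8, with 8 without control skin replicate 2. Within each tissue the replicate numbers did not pair model with control libraries. Deviations of same-numbered model and control libraries correlated at -0.56 to 0.31 in skin and -0.53 to -0.03 in DRG. No model library correlated best with the control of its own number. Skin and DRG libraries carry matching numbers, but whether these mark 1 animal is not stated and was not checked. With a replicate block 2 members were called, Ivl and Crct1.

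Called genes of the whole table, 3892 in skin, numbered 6820 with all 24 libraries in 1 fit, 1739 with the fold limit and 2564 to 6278 with a library left out. Genes called lower in skin, 1137, numbered 2398 in DESeq2, 747 without the filter, 3404 with all 24 libraries, 540 with the replicate block, 447 and 448 in limma on log2(TPM + 1) and log2(TPM + 0.1), 97 with the fold limit and 308 to 2554 with a library left out. In DRG no member was called, with 0 to 1 when a library was left out (Lce6a without model replicate 6). The whole table had 19 calls there, 136 in DESeq2, 12 with at least 1 CPM in 6 libraries, 32 with all 24 libraries, 6 with the replicate block and 11 to 36 with a library left out. For the difference between tissues the members called were 1, 0 with at least 1 CPM in 6 libraries, where Lce6a was not tested, and 1 to 2 with a library left out, and the whole table's 2942 calls were 1335 with the fold limit and 2229 to 4646 with a library left out.

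Among the 19 members chosen by the naming rule, the sign turned for 5 that were not called. Hrnr was at 0.015 with the replicate block and -0.46 to 0.31 with a library left out, and Rptn at -0.0026 with upper-quartile factors, -0.015 with all 24 libraries and -0.13 to 0.19 with a library left out. With a library left out Flg ran from -0.037 to 0.78, Sprr2b from -4.91 to 1.01 and Sprr2d from -1.97 to 0.15. Of the other members, Sprr2a3 (-0.0045 to 1.003), Sprr2e (-1.35 to 0.02), Sprr2i (-1.05 to 0.12) and 12 of the 14 Lce1 genes also crossed 0 over the settings, and none of these was called with all libraries in edgeR. For these changes the cause was not tested. Over the named members and settings 470 values kept their sign and side of the threshold, 17 gained a call, 22 lost it and 11 turned sign. Depth limits the DRG results: apart from Lce6a, Tchh and Lor, no member had over 6 counts in a DRG library.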
